A study of Mus musculus with 30 samples.

Results

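Interferon-stimulated genes are genes that cells switch on when they receive an interferon. A list of 42 such mouse genes was read out in medullary thymic epithelial cells (mTECs). They were picked from the genes known to carry the response, with earlier results of these data known. All 42 were found among the 55011 gene rows of the mTEChi count table and the 35999 gene symbols of the B6 Aire-GFP+ table. All 42 also passed the filter on low counts in both tables, which left 18418 and 17923 genes for testing. Type I and type III interferons act through a complex with STAT2 and IRF9 that binds a DNA element called the ISRE, whereas interferon-gamma acts mainly through another element, the GAS. Many of the induced genes block a step of viral growth, others mark vacuoles that hold microbes, and a few, such as Irf7, feed back on the signal. In the thymic medulla, mature mTECs express interferons and interferon-stimulated genes without infection, and Aire, a regulator of transcription in these cells, is best known for switching on tissue-restricted antigens.

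The mice were female C57BL/6J animals aged 4 to 6 weeks, and each library held the RNA of 1000 thymic epithelial cells sorted by flow cytometry after CD45+ cells had been depleted with magnetic beads. The libraries were made by Smart-seq2, which keeps neither strand nor molecular identifiers. Aire loss was compared in untreated B6 Aire-GFP+ mTECs (2 Aire-KO and 3 WT libraries), in mTEChi, the mature subset, of mice given PBS by intraperitoneal injection (2 Aire-KO and 2 WT) and in mTEChi of mice given spermidine, a polyamine, by the same route (2 Aire-KO and 2 WT). The 4 mTEChi groups of that experiment also give the effect of spermidine over PBS within each genotype. The other mTEChi contrasts set topotecan, an inhibitor of topoisomerase I, against its vehicle DMSO in WT mice (2 and 2), and Foxn1-cre,Nfe2l2 fl/fl against Foxn1-cre,Nfe2l2+/+ mice (2 and 2). Both Nfe2l2 groups carry the Cre, which Foxn1 drives in thymic epithelium, and Nfe2l2 encodes the oxidative stress factor NRF2. Doses and times were not given in the sources used here, and nothing ties the libraries of a group to separate animals, so the p-values measure only the spread between these libraries.

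Library totals were 6577151 to 12612775 counts for B6 Aire-GFP+ and 2027205 to 5724045 counts for mTEChi, and the biological coefficient of variation was 0.272 and 0.269. The 12 mTEC markers were all detected in every group. Whole-gene counts did not check the genotypes: Aire had 1508 and 1774 CPM in Aire-KO libraries, against 1603, 1686 and 1671 CPM in WT libraries of B6 Aire-GFP+ cells, and was higher in Aire-KO mTEChi (2.83-fold higher with PBS and 2.35-fold higher with spermidine). Nfe2l2 had 105 and 86.6 CPM in flox libraries, against 90.7 and 91.4 CPM in wt libraries of mTEChi. Aire-KO and flox below mean the libraries so labelled. Values are in CPM, each count taken as a share of its library's TMM-scaled total, log2 fold changes come from edgeR's quasi-likelihood fit over all genes, and a gene was called when its Benjamini-Hochberg adjusted p over all tested genes was under 0.05. In sorted pools of cells, fewer cells of a type and less RNA per cell cannot be told apart.

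Interferon-stimulated genes were called lower in Aire-KO mTECs more often than higher in each of 3 comparisons that share no library. In B6 Aire-GFP+ cells 25 of the 42 members fell and 4 rose, while 22.3% of all tested genes fell and 19% rose. In PBS mTEChi 22 members fell and 1 rose, against 5.08% and 5.21% of all genes. In spermidine mTEChi 13 members fell and 2 rose, against 4.34% and 4.77% of all genes. In either direction these are 29, 23 and 15 of the 42, where 41.3%, 10.3% and 9.11% of all genes were called. At an unadjusted p under 0.05 they were 32, 32 and 30, where 50.5%, 25.1% and 23.6% of all genes were. The median log2 fold change of the 42 was -0.73, -0.77 and -0.64 in the 3 comparisons, where the median of all tested genes was -0.12, -0.05 and -0.04. Because the 42 were chosen with earlier results of these data known, these shares describe this list and not interferon-stimulated genes at large. The 3 comparisons are of different depth and kind, and whether the fall differed between B6 Aire-GFP+ cells and mTEChi was not tested.

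Members called lower in all 3 comparisons were Isg15, Ifi44, Irf7, Oasl2, Gbp3 and Rtp4, 6 of 42, where 2.17% of the 15649 genes tested in both tables were called lower in all 3. No member was called higher in all 3, where 3.01% of those genes were. A further 15 members were called lower in 2 comparisons and 12 in 1, where 3.65% and 19.5% of those genes were. The other 9 were called lower in none, as were 74.7% of those genes, and the log2 fold change was negative in all 3 comparisons for 33 members. Of the 33 members called lower at least once, 9 were called only in B6 Aire-GFP+ cells (Ifit2, Stat2, Oasl1, Dhx58, Gbp5, Gbp7, Parp9, Parp12 and Dtx3l) and 8 only in mTEChi (Ifi27, Ifi47, Irf9, Bst2, Ifitm3, Xaf1, Parp14 and Trim30a). Of all those genes 17.5% were called lower in B6 Aire-GFP+ cells alone and 2.7% in mTEChi alone. A call in 1 comparison that is missed in another does not show that the effects differ. With limma-voom the spermidine calls of Ifi44 and Gbp3, both called lower in all 3 with edgeR, were lost (adjusted p = 0.102 and 0.0722). Over both mTEChi treatments averaged, Ifit2, Gbp5, Gbp7, Parp9, Parp12 and Dtx3l were called lower as well, while Stat2, Oasl1 and Dhx58 were not called. With limma-voom the averaged calls of Ifit2 and Gbp5 were lost (adjusted p = 0.054 and 0.0996). That of Gbp5 was also lost with DESeq2, with no filter on low counts and with the replicate number as a block (0.0544, 0.122 and 0.0553).

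How far single libraries carry these counts differed between the comparisons. In each of them, every omission of 1 library lowered the number of all called genes as well as that of called members. In B6 Aire-GFP+ cells, leaving out any 1 of the 5 libraries left 22 to 27 members called. In PBS mTEChi the 23 calls became 7 without Aire-KO library 1, 16 without Aire-KO library 2, 17 without WT library 1 and 15 without WT library 2. In spermidine mTEChi the 15 calls became 4 without Aire-KO library 1, Aire-KO library 2 or WT library 1, and 10 without WT library 2. The median of the 42 stayed between -0.85 and -0.62 in B6 Aire-GFP+ cells, between -0.85 and -0.71 in PBS mTEChi and between -0.72 and -0.45 in spermidine mTEChi under the same omissions. The calls that held in every omission were 19 of 29 in B6 Aire-GFP+ cells (all but Irgm2, Igtp, Gbp5, Oasl1, Oasl2, Dhx58, Stat2, Parp9, Parp12 and Zc3hav1), 5 of 23 in PBS mTEChi (Isg15, Ifi44, Rtp4, Irgm1 and Oasl2) and 2 of 15 in spermidine mTEChi (Irf7 and Irf1). In PBS mTEChi the calls of Irf7, Gbp3, Parp14 and Igtp were lost without Aire-KO library 1, those of Ifit3 and Irf9 without Aire-KO library 1 or WT library 2, that of Bst2 without either Aire-KO library, that of Gbp2 without Aire-KO library 2 or WT library 1, that of Xaf1 without Aire-KO library 2, and that of Irgm2 without any 1 of the 4. In spermidine mTEChi the call of Ifitm3 was lost without Aire-KO library 1, that of Isg15 without Aire-KO library 2 or WT library 1, those of Rsad2, Cmpk2 and Bst2 without either Aire-KO library or WT library 1, that of Gbp3 without Aire-KO library 1 or either WT library, that of Ifit1 without either Aire-KO library or WT library 2, and those of Ifi44, Rtp4, Xaf1 and Ifi27 without any 1 of the 4. With both treatments averaged, 4 against 4 mTEChi libraries, 30 members were called lower and 4 higher, where 12.5% and 10.3% of all genes were (34 members and 22.8% in either direction, and 36 members and 35.1% at an unadjusted p under 0.05). The median of the 42 was then -0.70.

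**Figure D1:**
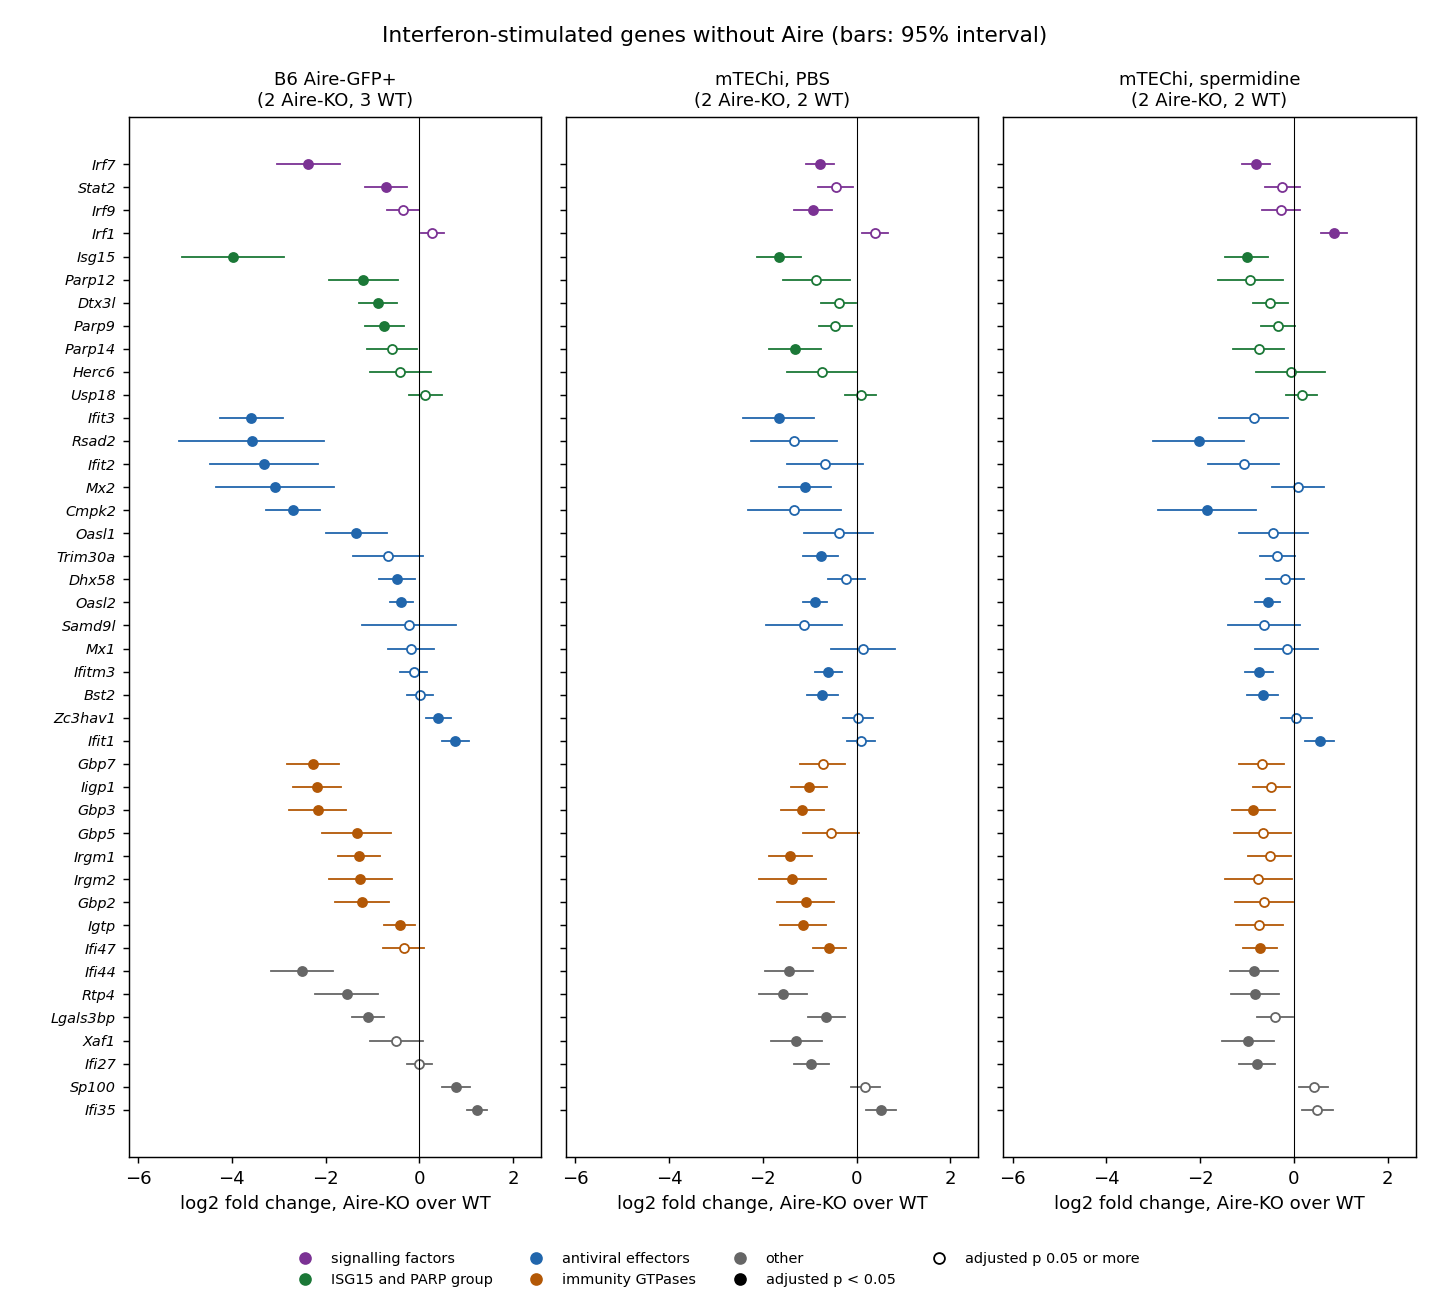
Log2 fold change of Aire-KO over WT for the 42 interferon-stimulated genes, with 95% intervals, in B6 Aire-GFP+ mTECs, PBS mTEChi and spermidine mTEChi. Filled points have an adjusted p under 0.05 and colours mark the roles of the genes: most points lie left of 0, and Ifit1, Ifi35, Irf1, Usp18, Sp100 and Zc3hav1 lie right of 0 in all 3 panels.

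The promoters of 6 members show where the letters of the ISRE and GAS elements lie. They are the 250 bases upstream of the RefSeq start on mouse build GRCm38.p6, read 5′ to 3′ on the strand of the gene, and were picked as Isg15 and Gbp3 (lower in all 3 comparisons, with an ISRE), Irf7 (lower in all 3, with none), Rsad2 (lower by over 4-fold in spermidine mTEChi), Ifit1 (higher, with an ISRE) and Irf1 (higher, with a GAS). Capitals mark the ISRE letters, GAAA, any 2 bases and GAAA again, on either strand, and in Irf1 the letters TTCNNNGAA (GAS).
Isg15 lies on the minus strand of chromosome 4, and its window is chr4:156200819-156201068.
Isg15: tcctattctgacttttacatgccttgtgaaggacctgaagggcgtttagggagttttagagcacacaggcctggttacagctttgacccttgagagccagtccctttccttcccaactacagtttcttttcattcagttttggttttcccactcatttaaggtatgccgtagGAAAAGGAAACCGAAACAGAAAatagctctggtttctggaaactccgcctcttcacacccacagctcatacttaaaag
Gbp3 lies on the plus strand, with the window chr3:142559794-142560043.
Gbp3: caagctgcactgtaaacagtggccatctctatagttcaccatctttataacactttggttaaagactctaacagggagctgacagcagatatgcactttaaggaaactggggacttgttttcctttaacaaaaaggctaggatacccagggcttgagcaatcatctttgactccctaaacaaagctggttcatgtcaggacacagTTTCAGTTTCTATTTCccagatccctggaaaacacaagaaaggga
Irf7 lies on the minus strand, with the window chr7:141266425-141266674.
Irf7: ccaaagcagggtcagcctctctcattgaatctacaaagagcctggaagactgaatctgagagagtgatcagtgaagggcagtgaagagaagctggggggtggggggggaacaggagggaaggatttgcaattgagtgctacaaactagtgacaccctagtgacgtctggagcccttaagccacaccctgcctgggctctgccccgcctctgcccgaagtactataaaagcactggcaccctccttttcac
Rsad2 lies on the minus strand, with the window chr12:26456453-26456702.
Rsad2: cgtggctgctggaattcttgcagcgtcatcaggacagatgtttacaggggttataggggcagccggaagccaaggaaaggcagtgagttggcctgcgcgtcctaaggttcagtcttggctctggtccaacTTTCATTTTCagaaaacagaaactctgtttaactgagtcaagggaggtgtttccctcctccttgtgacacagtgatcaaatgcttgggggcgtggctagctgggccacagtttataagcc
Ifit1 lies on the plus strand, with the window chr19:34640639-34640888.
Ifit1: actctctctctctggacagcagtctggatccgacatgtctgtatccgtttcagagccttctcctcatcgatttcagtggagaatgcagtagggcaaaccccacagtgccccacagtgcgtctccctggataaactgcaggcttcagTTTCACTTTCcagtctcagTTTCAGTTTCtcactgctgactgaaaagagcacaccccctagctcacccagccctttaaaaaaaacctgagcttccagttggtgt
Irf1 lies on the plus strand, with the window chr11:53769764-53770013.
Irf1: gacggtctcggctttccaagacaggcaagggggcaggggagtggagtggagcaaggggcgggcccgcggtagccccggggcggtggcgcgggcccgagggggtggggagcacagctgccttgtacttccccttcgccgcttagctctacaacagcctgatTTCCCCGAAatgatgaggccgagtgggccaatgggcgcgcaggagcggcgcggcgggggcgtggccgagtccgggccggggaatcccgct
The first bases of the 3 overlapping ISRE matches of Isg15 lie at -78, -72 and -66 from the start, those of the 2 overlapping matches of Gbp3 at -45 and -39, that of Rsad2 at -120 and those of Ifit1 at -104 and -85. The GAS match of Irf1 begins at -90.

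RefSeq promoter windows, each from 250 bases before to 50 bases after a start, were at hand for 33 of the 42 members, and those of Mx1, Mx2, Dhx58, Ifi27, Iigp1, Parp9, Parp14, Usp18 and Rtp4 were not used here. The ISRE letters were in 15 of the 33 (45.5%), and in 3.99% of 27025 genes with a window. The GAS letters were in 9 of the 33 (27.3%), and in 9.55% of those genes. Among the 15 members with the ISRE letters, 11 fell and 1 rose in B6 Aire-GFP+ cells (median log2 fold change -1.26), 10 fell and none rose in PBS mTEChi (-1.09), and 5 fell and 1 rose in spermidine mTEChi (-0.69). Among the 18 without them, 9 fell and 3 rose (-0.45), 7 fell and 1 rose (-0.70), and 6 fell and 1 rose (-0.53) in the same order. Ifit1, with 2 matches, was the ISRE member that rose. For the 9 members with the GAS letters the medians were -0.42, -0.67 and -0.69 in the same order, and for the 24 without them -0.99, -0.87 and -0.60. Whether either split differs was not tested. A match describes these letters only and is not evidence of a bound factor.

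Of the 4 members that carry the signal, Irf7 fell in all 3 comparisons and Irf1 fell in none. Irf7 is the transcription factor that amplifies type I interferon genes, Stat2 and Irf9 are subunits of the complex that binds the ISRE, and Irf1 is an early target of interferon-gamma and a transcription factor itself. In B6 Aire-GFP+ cells Irf7 had 11.8 and 11.7 CPM in Aire-KO libraries, against 38.4, 71.6 and 71.2 CPM in WT libraries (log2 fold change -2.36 ± 0.30 SE, 5.15-fold lower, adjusted p = 0.000657). In spermidine mTEChi it had 119 and 130.5 CPM in Aire-KO libraries, against 224 and 213 CPM in WT libraries (log2 fold change -0.81 ± 0.14 SE, 1.76-fold lower, adjusted p = 0.00264), and in PBS mTEChi 102 and 111 against 177 and 188 CPM (log2 fold change -0.78 ± 0.14 SE, 1.71-fold lower, adjusted p = 0.00309). Every Aire-KO library was below every WT library of its comparison. Stat2 was called in B6 Aire-GFP+ cells, with 21.9 and 19.1 CPM in Aire-KO libraries, against 28.3, 33.3 and 38.9 CPM in WT libraries (log2 fold change -0.71 ± 0.20 SE, 1.64-fold lower, adjusted p = 0.0219), and its log2 fold changes of -0.45 ± 0.17 and -0.24 ± 0.17 (SE) in PBS and spermidine mTEChi missed the threshold. Irf9 was called in PBS mTEChi, with 63.8 and 68.1 CPM in Aire-KO libraries, against 110.0 and 141 CPM in WT libraries (log2 fold change -0.92 ± 0.19 SE, 1.90-fold lower, adjusted p = 0.00634), and its values of -0.35 ± 0.15 and -0.27 ± 0.19 (SE) in B6 Aire-GFP+ cells and spermidine mTEChi missed it. Over both mTEChi treatments averaged Irf9 was called (log2 fold change -0.60 ± 0.13 SE, adjusted p = 0.00521) and Stat2 was not (-0.34 ± 0.12, adjusted p = 0.055).

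Irf1 had 454 and 443 CPM in Aire-KO libraries, against 272 and 223 CPM in WT libraries of spermidine mTEChi (log2 fold change 0.85 ± 0.13 SE, 1.81-fold higher, adjusted p = 0.00102). All Aire-KO libraries of both mTEChi experiments were above all their WT libraries, with 395 and 418 against 292 and 328 CPM for Aire-KO and WT of the PBS experiment (log2 fold change 0.39 ± 0.13, SE, adjusted p = 0.0675). In B6 Aire-GFP+ cells its log2 fold change of 0.28 ± 0.11 (SE) missed the threshold and turned negative when libraries were scaled by their totals alone. The call in spermidine mTEChi held with library totals (log2 fold change 0.68, adjusted p = 0.00472).

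Isg15, the ubiquitin-like protein that gives the group its name, fell the furthest of the 42 members in B6 Aire-GFP+ cells. It had 0.952 and 1.80 CPM in Aire-KO libraries, against 13.3, 29.6 and 23.6 CPM in WT libraries there (log2 fold change -3.98 ± 0.47 SE, 15.7-fold lower, adjusted p = 0.000526). In PBS mTEChi it had 16.9 and 21.1 CPM in Aire-KO libraries, against 58.6 and 61.6 CPM in WT libraries (log2 fold change -1.65 ± 0.22 SE, 3.14-fold lower, adjusted p = 0.000374), and in spermidine mTEChi 31.1 and 23.3 against 61.6 and 47.8 CPM (log2 fold change -1.01 ± 0.22 SE, 2.01-fold lower, adjusted p = 0.0101). The groups did not overlap in any of the 3 comparisons. Usp18, the protease that removes ISG15 from proteins and restrains the interferon receptor, overlapped between the groups, with 467 and 349.9 CPM in Aire-KO libraries, against 426, 342 and 352 CPM in WT libraries of B6 Aire-GFP+ cells. Its log2 fold changes of 0.13 ± 0.15, 0.09 ± 0.15 and 0.17 ± 0.15 (SE, B6, PBS and spermidine) missed the threshold, and all 3 turned negative with library totals alone. Herc6, the mouse ligase that attaches ISG15, was called in none of the 3.

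The ADP-ribosyltransferases and their partner were called in different comparisons. Parp14, which acts in STAT6 and interferon signalling, had 25.6 and 33.9 CPM in Aire-KO libraries, against 61.9 and 87.3 CPM in WT libraries of PBS mTEChi (log2 fold change -1.31 ± 0.26 SE, 2.48-fold lower, adjusted p = 0.00503). Parp9 and Parp12 fell in B6 Aire-GFP+ cells by 1.68-fold and 2.29-fold, and Dtx3l, the ubiquitin ligase that pairs with PARP9, by 1.85-fold. Parp9 and Dtx3l overlap on opposite strands, and since the libraries keep no strand their counts cannot be fully told apart. Over both mTEChi treatments averaged, Parp14, Parp9, Parp12 and Dtx3l were all called lower (adjusted p = 0.000969, 0.0285, 0.0126 and 0.0205). With no filter on low counts the averaged calls of Parp9 and Dtx3l were lost (adjusted p = 0.0641 and 0.0504), and with limma-voom that of Parp9 (0.0707). In all, 4 of the 7 genes of the ISG15 and PARP group fell in B6 Aire-GFP+ cells, 2 in PBS mTEChi and 1 in spermidine mTEChi, and none rose. Of all genes, 22.3%, 5.08% and 4.34% fell there.

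**Figure D2:**
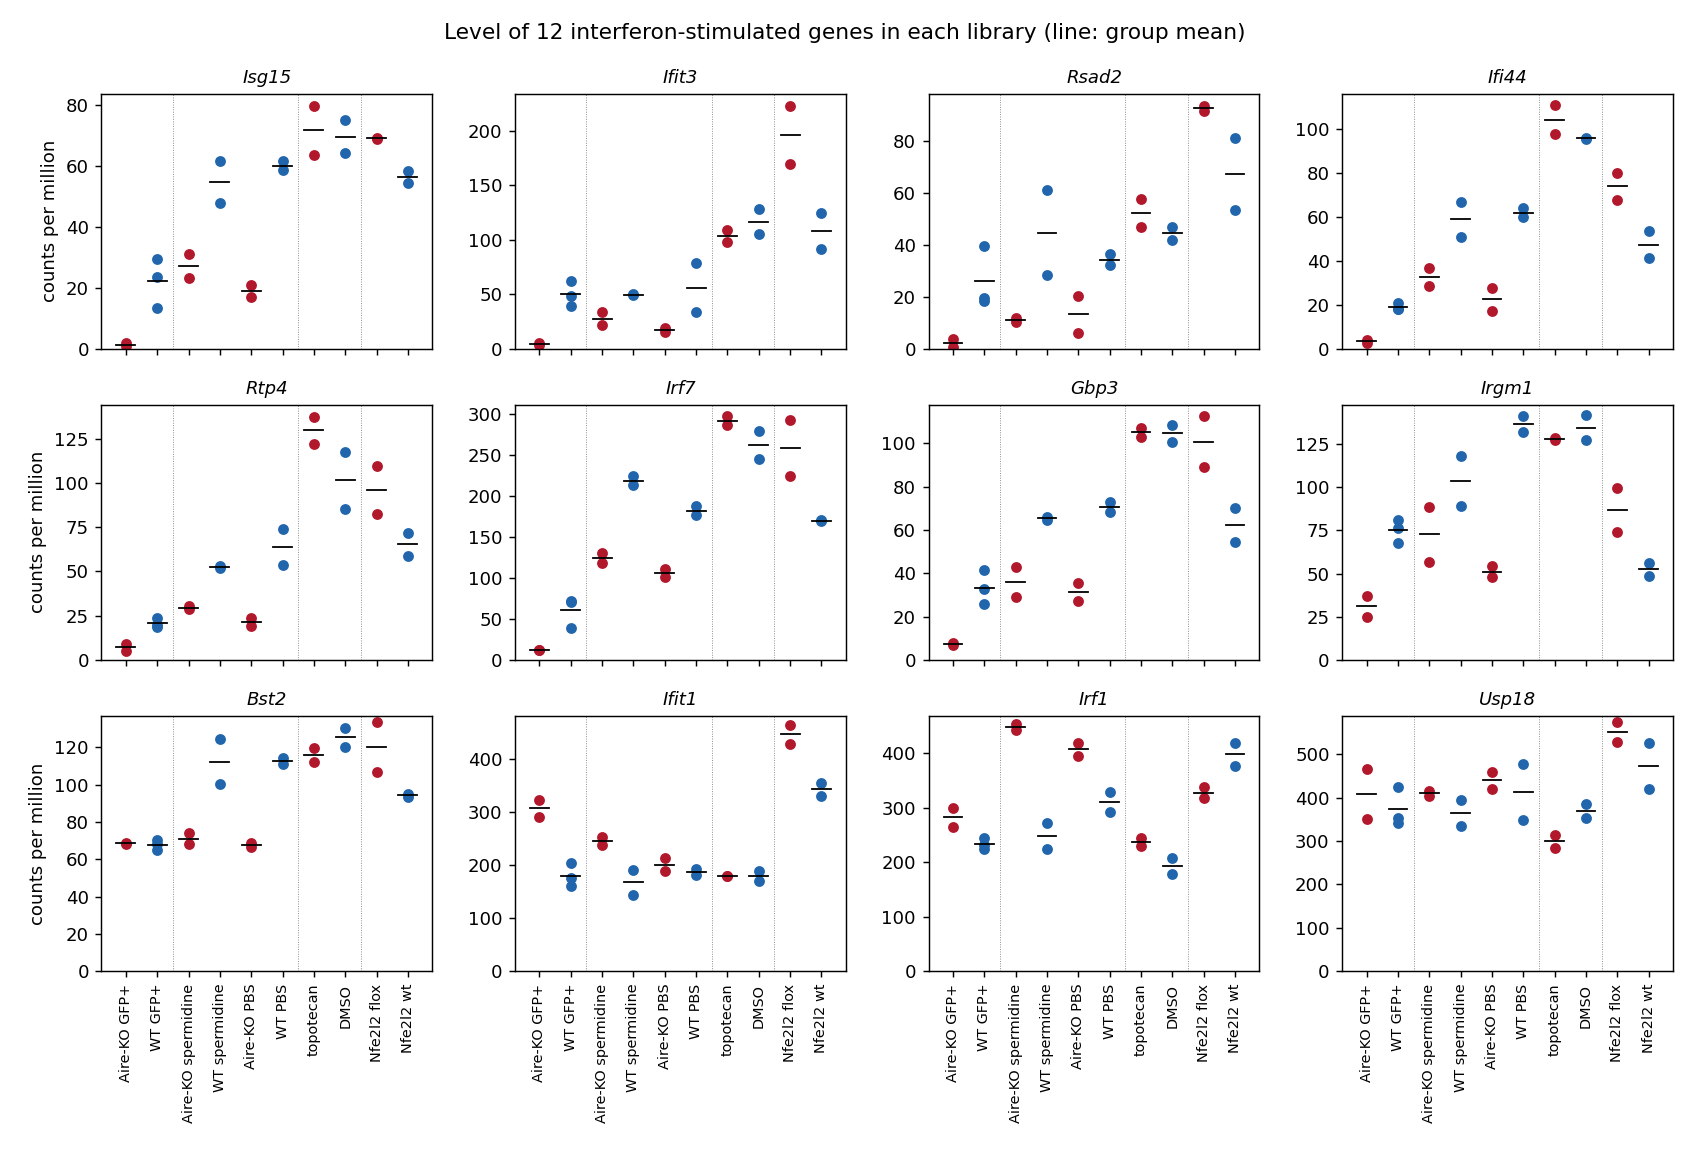
CPM in every library for 12 of the 42 genes, with red points for the Aire-KO, topotecan and Nfe2l2 flox groups and blue points for the groups they are set against, and a line at each group mean. B6 Aire-GFP+ and mTEChi levels come from tables scaled apart: the Aire-KO points of Isg15, Ifit3, Ifi44, Irf7, Gbp3 and Rtp4 lie below their WT points, and those of Ifit1 and Irf1 lie above them in B6 Aire-GFP+ cells.

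The antiviral effectors, 15 genes, gave 8 lower and 2 higher members in B6 Aire-GFP+ cells, 6 lower and none higher in PBS mTEChi, and 5 lower and 1 higher in spermidine mTEChi. Of all genes, 22.3% fell and 19% rose in the first, 5.08% and 5.21% in the second, and 4.34% and 4.77% in the third. Ifit1, Ifit2 and Ifit3 encode proteins that bind foreign RNA and one another, and in B6 Aire-GFP+ cells they moved in different directions. Ifit3 had 5.12 and 3.31 CPM in Aire-KO libraries, against 48.7, 62.0 and 39.5 CPM in WT libraries of B6 Aire-GFP+ cells (log2 fold change -3.58 ± 0.30 SE, 12-fold lower, adjusted p = 0.000115). In PBS mTEChi it had 15.6 and 19.0 against 33.5 and 78.6 CPM for Aire-KO and WT libraries (log2 fold change -1.66 ± 0.35 SE, 3.17-fold lower, adjusted p = 0.0079). The WT values of the PBS experiment lie far apart, but both are above both Aire-KO values. That log2 fold change was -0.95 without WT library 2, where the call was lost, and -2.17 without WT library 1. Ifit2 had 1.43 and 2.56 CPM in Aire-KO libraries, against 13.8, 31.9 and 14.6 CPM in WT libraries of B6 Aire-GFP+ cells (log2 fold change -3.31 ± 0.51 SE, 9.94-fold lower, adjusted p = 0.00159), and its log2 fold changes of -0.67 ± 0.38 and -1.07 ± 0.35 (SE) in PBS and spermidine mTEChi missed the threshold.

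Ifit1 rose in B6 Aire-GFP+ cells and in spermidine mTEChi. It had 324 and 292 CPM in Aire-KO libraries, against 160.2, 204 and 177 CPM in WT libraries of B6 Aire-GFP+ cells (log2 fold change 0.77 ± 0.13 SE, 1.71-fold higher, adjusted p = 0.00228) and 239 and 254 CPM in Aire-KO libraries, against 192 and 145 CPM in WT libraries of spermidine mTEChi (log2 fold change 0.55 ± 0.14 SE, 1.46-fold higher, adjusted p = 0.0253). Every Aire-KO library was above every WT library in both. In PBS mTEChi Aire-KO and WT libraries overlapped, with 214 and 189 against 181 and 194 CPM, and the log2 fold change of 0.10 ± 0.14 (SE) missed the threshold. With library totals alone the B6 and spermidine values stayed positive but missed the threshold (adjusted p = 0.0526 and 0.108), and the PBS value turned negative. The Ifit genes are close paralogs, Ifit3 and Ifit3b above all, so the split of reads between them is uncertain.

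Rsad2 and Cmpk2 are neighbours on chromosome 12 and make or supply the modified nucleotide that stops viral polymerases. Rsad2 had 0.476 and 3.69 CPM in Aire-KO libraries, against 19.5, 18.5 and 39.7 CPM in WT libraries of B6 Aire-GFP+ cells (log2 fold change -3.57 ± 0.67 SE, 11.9-fold lower, adjusted p = 0.00419) and 11.7 and 10.4 CPM in Aire-KO libraries, against 60.9 and 28.5 CPM in WT libraries of spermidine mTEChi (log2 fold change -2.03 ± 0.45 SE, 4.08-fold lower, adjusted p = 0.0124). Cmpk2 had 3.45 and 3.98 CPM in Aire-KO libraries, against 22.5, 27.4 and 22.6 CPM in WT libraries of B6 Aire-GFP+ cells (log2 fold change -2.70 ± 0.25 SE, 6.48-fold lower, adjusted p = 0.000196) and 13.1 and 9.84 against 63.7 and 18.4 CPM in spermidine mTEChi (log2 fold change -1.85 ± 0.49 SE, 3.60-fold lower, adjusted p = 0.0305). Both genes were lower in every Aire-KO library of these comparisons, but the spermidine WT libraries differed from each other by more than the 2 Aire-KO libraries did. In PBS mTEChi both had negative log2 fold changes that missed the threshold (-1.33 ± 0.43 and -1.33 ± 0.46, SE). The sizes lean on single libraries. In spermidine mTEChi the log2 fold change of Cmpk2 ran from -2.47 to -0.67 and that of Rsad2 from -2.46 to -1.37 when 1 library was left out, both smallest without WT library 1, and 3 of the 4 omissions ended each call. With limma-voom both spermidine calls were lost (adjusted p = 0.223 for Cmpk2 and 0.0855 for Rsad2). That of Cmpk2 was also lost in edgeR with the replicate number as a block (adjusted p = 0.0542). The value of Rsad2 in B6 Aire-GFP+ cells was -2.80 without Aire-KO library 1 and -5.72 without Aire-KO library 2, and both calls held.

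Of 3 proteins that block virus entry, release or transport, Ifitm3 and Bst2 were called in mTEChi and Mx1 in no comparison. Ifitm3, which stops viruses from fusing with endosomes, had 536 and 571 CPM in Aire-KO libraries, against 987 and 863 CPM in WT libraries of spermidine mTEChi (log2 fold change -0.74 ± 0.14 SE, 1.67-fold lower, adjusted p = 0.00359). Bst2, the tetherin that holds budding virions at the surface, fell in PBS mTEChi, with 66.8 and 68.8 against 111 and 114 CPM for Aire-KO and WT libraries (log2 fold change -0.73 ± 0.16 SE, 1.66-fold lower, adjusted p = 0.00798), and in spermidine mTEChi, with 68.0 and 74.0 against 124 and 100.3 CPM (log2 fold change -0.66 ± 0.16 SE, 1.58-fold lower, adjusted p = 0.0164). In B6 Aire-GFP+ cells Bst2 levels overlapped, with 68.4 and 68.6 CPM in Aire-KO libraries, against 68.4, 70.3 and 64.7 CPM in WT libraries (log2 fold change 0.02 ± 0.12, SE), a value that turned negative with library totals alone. Mx1, a GTPase that traps viral ribonucleoproteins and is defective in many laboratory strains, overlapped in all 3 comparisons (log2 fold change -0.18 ± 0.21, 0.15 ± 0.32 and -0.15 ± 0.31, SE, for B6, PBS and spermidine; the PBS value turned negative with library totals alone).

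Among the remaining antiviral members, Mx2, listed as a polymorphic pseudogene in the annotation, fell in B6 Aire-GFP+ cells and PBS mTEChi by 8.46-fold and 2.15-fold. Oasl2, of the oligoadenylate synthetase family, fell in all 3 comparisons by 1.31-fold, 1.84-fold and 1.47-fold. Oasl1 and the RNA sensor Dhx58 were called lower in B6 Aire-GFP+ cells (-1.34 ± 0.29 and -0.48 ± 0.17 on the log2 scale, SE) and missed the threshold in mTEChi. Trim30a was called lower in PBS mTEChi and missed the threshold in the other 2 comparisons, and Samd9l missed it in all 3. Over both mTEChi treatments averaged Trim30a and Samd9l were called lower (-0.56 ± 0.12 and -0.88 ± 0.26, adjusted p = 0.00472 and 0.0266). With limma-voom the averaged call of Samd9l was lost (adjusted p = 0.0727). Whether these effects differ between the comparisons was not tested. Zc3hav1, the zinc-finger protein that directs foreign RNA to decay, had 224 and 193 CPM in Aire-KO libraries, against 169.9, 152 and 151 CPM in WT libraries of B6 Aire-GFP+ cells (log2 fold change 0.40 ± 0.12 SE, 1.32-fold higher, adjusted p = 0.0258), but with library totals alone its log2 fold change there was 0.01 (adjusted p = 0.976).

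The interferon-inducible GTPases, which gather on vacuoles that hold microbes and are classic targets of interferon-gamma, numbered 9 among the 42. Of the 9, 8 fell in B6 Aire-GFP+ cells, 7 in PBS mTEChi and 2 in spermidine mTEChi, where 22.3%, 5.08% and 4.34% of all genes fell. Their median log2 fold changes were -1.28, -1.09 and -0.69. All 9 had negative values in each comparison. Of the further interferon-stimulated genes outside the 42, the guanylate-binding proteins Gbp4, Gbp8 and Gbp9 rose in B6 Aire-GFP+ cells (0.63 ± 0.10, 1.05 ± 0.12 and 0.69 ± 0.11 on the log2 scale, SE), and Gbp4 and Gbp9 over both mTEChi treatments averaged (0.59 ± 0.17 and 0.63 ± 0.15). With library totals alone the B6 calls of Gbp4 and Gbp9 were lost (adjusted p = 0.0802 and 0.0565), as was the averaged call of Gbp4 (0.0999). Gbp3, a guanylate-binding protein, had 6.90 and 7.86 CPM in Aire-KO libraries, against 41.3, 25.6 and 33.0 CPM in WT libraries of B6 Aire-GFP+ cells (log2 fold change -2.17 ± 0.26 SE, 4.49-fold lower, adjusted p = 0.000582). It had 27.3 and 35.6 against 68.5 and 72.8 CPM for Aire-KO and WT libraries of PBS mTEChi (log2 fold change -1.16 ± 0.21 SE, 2.23-fold lower, adjusted p = 0.00338) and 29.1 and 43.0 against 66.2 and 64.8 CPM for those of spermidine mTEChi (log2 fold change -0.86 ± 0.22 SE, 1.82-fold lower, adjusted p = 0.0228). The groups of Gbp3 did not overlap in any of the 3.

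Gbp7 fell in B6 Aire-GFP+ cells, with 7.02 and 5.11 CPM in Aire-KO libraries, against 30.6, 30.9 and 25.6 CPM in WT libraries (log2 fold change -2.26 ± 0.24 SE, 4.80-fold lower, adjusted p = 0.00034). Gbp5 fell there too (log2 fold change -1.34 ± 0.32 SE), a value that was -0.87 without Aire-KO library 2, where the call was lost, and -1.96 without Aire-KO library 1. Gbp2 fell there and in PBS mTEChi by 2.33-fold and 2.12-fold, with 36.9 and 22.5 against 72.1 and 52.4 CPM for Aire-KO and WT libraries of the PBS experiment. The Gbp genes are paralogs, so reads may be split between them. Iigp1, an immunity-related GTPase that loads onto vacuoles, had 30.8 and 18.3 CPM in Aire-KO libraries, against 107, 108 and 117 CPM in WT libraries of B6 Aire-GFP+ cells (log2 fold change -2.18 ± 0.22 SE, 4.53-fold lower, adjusted p = 0.000269). Irgm1, a regulator of that family that sits on the cell's own membranes, had 47.7 and 54.6 CPM in Aire-KO libraries, against 132 and 141 CPM in WT libraries of PBS mTEChi (log2 fold change -1.41 ± 0.22 SE, 2.66-fold lower, adjusted p = 0.000974). In spermidine mTEChi it had 56.8 and 88.5 against 89.2 and 118 CPM for Aire-KO and WT libraries (log2 fold change -0.51 ± 0.22, SE, adjusted p = 0.162).

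Irgm2 and Igtp, 2 further regulators of the same family, overlap on chromosome 11 and may share reads. Irgm2 had 13.9 and 14.5 CPM in Aire-KO libraries, against 36.8 and 36.9 CPM in WT libraries of PBS mTEChi (log2 fold change -1.37 ± 0.33 SE, 2.59-fold lower, adjusted p = 0.0179). Igtp had 51.6 and 52.9 against 115 and 114 CPM for Aire-KO and WT libraries of the same experiment (log2 fold change -1.13 ± 0.23 SE, 2.19-fold lower, adjusted p = 0.006). Ifi47 fell in both mTEChi comparisons by 1.49-fold and 1.64-fold, and its value in B6 Aire-GFP+ cells missed the threshold.

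The remaining 7 members have mixed or less settled roles. Ifi44, a cytoplasmic protein of the interferon response, had 2.74 and 3.88 CPM in Aire-KO libraries, against 20.9, 17.9 and 18.0 CPM in WT libraries of B6 Aire-GFP+ cells (log2 fold change -2.50 ± 0.29 SE, 5.65-fold lower, adjusted p = 0.000465). It had 17.4 and 27.6 against 64.1 and 59.7 CPM for Aire-KO and WT libraries of PBS mTEChi (log2 fold change -1.45 ± 0.24 SE, 2.72-fold lower, adjusted p = 0.00167) and 28.7 and 36.8 against 66.9 and 50.8 CPM for those of spermidine mTEChi (log2 fold change -0.85 ± 0.24 SE, 1.81-fold lower, adjusted p = 0.0382). Rtp4, a chaperone of receptors in the Golgi, fell in PBS mTEChi, with 19.1 and 23.5 against 53.5 and 74.2 CPM (log2 fold change -1.57 ± 0.24 SE, 2.97-fold lower, adjusted p = 0.000953), and in spermidine mTEChi, with 28.7 and 30.5 against 53.1 and 51.7 CPM (log2 fold change -0.82 ± 0.24 SE, 1.77-fold lower, adjusted p = 0.0447). No Aire-KO library of either gene reached a WT library of its comparison. In B6 Aire-GFP+ cells Rtp4 was 2.92-fold lower in Aire-KO.

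Xaf1, a pro-apoptotic partner of XIAP, and Ifi27, a mitochondrial protein, were called in both mTEChi comparisons and not in B6 Aire-GFP+ cells. Xaf1 had 17.8 and 16.6 CPM in Aire-KO libraries, against 41.9 and 41.7 CPM in WT libraries of PBS mTEChi (log2 fold change -1.28 ± 0.26 SE, 2.43-fold lower, adjusted p = 0.00574) and 18.9 and 22.8 against 41.8 and 40.8 CPM in spermidine mTEChi (log2 fold change -0.98 ± 0.26 SE, 1.98-fold lower, adjusted p = 0.0282). Ifi27 had 77.2 and 76.1 CPM in Aire-KO libraries, against 135 and 129 CPM in WT libraries of spermidine mTEChi (log2 fold change -0.78 ± 0.18 SE, 1.72-fold lower, adjusted p = 0.0132), whereas in B6 Aire-GFP+ cells it had 105 and 120.0 against 113, 109.9 and 116 CPM for Aire-KO and WT libraries (log2 fold change -0.0025 ± 0.12, SE). Lgals3bp, a secreted glycoprotein, fell in B6 Aire-GFP+ cells and PBS mTEChi by 2.12-fold and 1.56-fold.

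Ifi35 and Sp100 went the other way. Ifi35, a protein that pairs with NMI and binds leucine-zipper factors, had 349 and 346 CPM in Aire-KO libraries, against 148, 151 and 144 CPM in WT libraries of B6 Aire-GFP+ cells (log2 fold change 1.23 ± 0.10 SE, 2.35-fold higher, adjusted p = 8.65e-05) and 203 and 200 CPM in Aire-KO libraries, against 132 and 149 CPM in WT libraries of PBS mTEChi (log2 fold change 0.52 ± 0.15 SE, 1.44-fold higher, adjusted p = 0.0417). The PBS call was lost with library totals alone (adjusted p = 0.178), while that in B6 Aire-GFP+ cells held (log2 fold change 0.84, adjusted p = 0.000529). Sp100, a component of nuclear bodies, had 112 and 138 CPM in Aire-KO libraries, against 77.0, 71.1 and 69.9 CPM in WT libraries of B6 Aire-GFP+ cells (log2 fold change 0.78 ± 0.13 SE, 1.72-fold higher, adjusted p = 0.00271), and the call held with library totals (adjusted p = 0.0428).

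**Figure D3:**
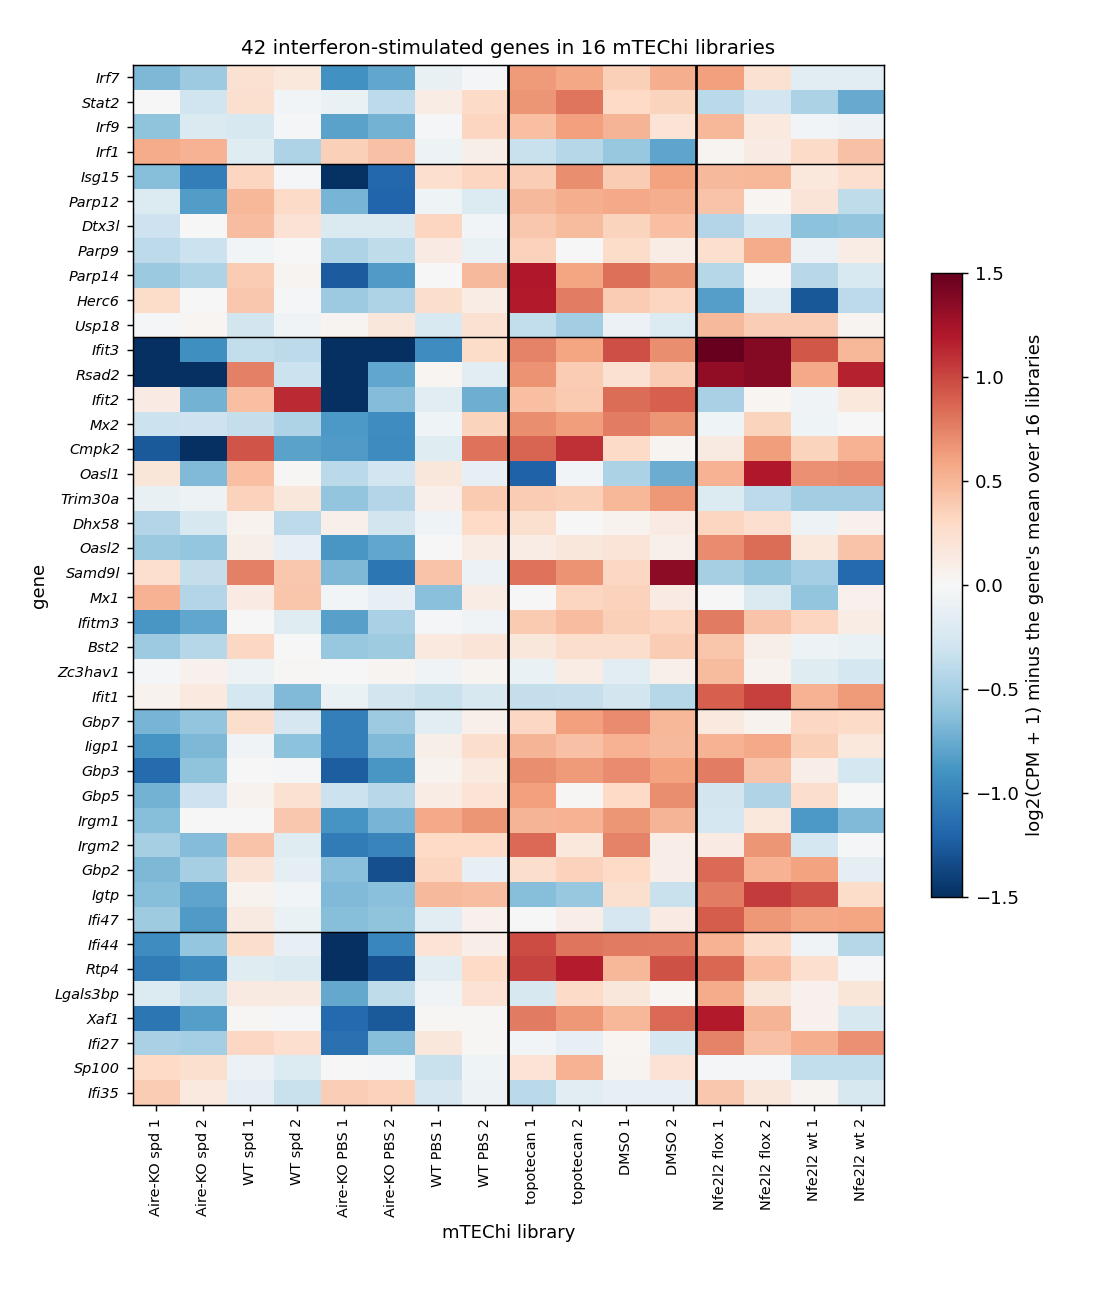
Level of the 42 genes in the 16 mTEChi libraries, as log2(CPM + 1) minus the mean of the gene over all 16, with colours limited to ±1.5. The 4 Aire-KO libraries are below the gene mean for most rows, and the Nfe2l2 flox libraries are above their wt controls for most rows.

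Summed over the 42 genes, B6 Aire-GFP+ libraries held 3631 and 3282 CPM in Aire-KO, against 3767, 3766 and 4024 CPM in WT. PBS mTEChi held 3982 and 4353 CPM in Aire-KO, against 5520 and 6064 CPM in WT, and spermidine mTEChi 4527 and 4478 CPM in Aire-KO, against 5872 and 5294 CPM in WT. The sum leans on the few most abundant genes, so the mean of log2(CPM + 1) over the members gives them equal weight. That mean was 4.72 and 4.69 in B6 Aire-KO, against 5.61, 5.69 and 5.72 in WT, 5.68 and 5.81 in PBS Aire-KO, against 6.43 and 6.55 in WT, and 5.99 and 5.95 in spermidine Aire-KO, against 6.57 and 6.37 in WT. By both measures each Aire-KO library lay below each WT library of its comparison.

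Between genes, levels can be compared only per transcript length, which the deposited TPM of the B6 Aire-GFP+ libraries allow. Ifitm3 led with 1093 ± 133 TPM in Aire-KO (SD, n = 2) and 1742 ± 257 TPM in WT (SD, n = 3). In WT, Usp18 (275 ± 25.7 TPM), Ifi27 (192 ± 9.64 TPM) and Ifi35 (156 ± 4.91 TPM) followed, and the values of neighbours in this order of 4 did not overlap. From Ifi35 through Oasl2 and Lgals3bp to Irf1 each gene overlapped the next, down to 139 ± 2.77 TPM for Irf1. Isg15 averaged 1.88 TPM in Aire-KO and 45.5 TPM in WT, and Samd9l was lowest in WT with 1.33 ± 0.11 TPM. The TPM of all genes are shifted between the genotypes (median log2 ratio -0.57 over 17334 genes), and 4 of the 7 members higher in the count fit (Bst2, Irf1, Usp18 and Zc3hav1) are lower in TPM.

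The scale on which the libraries are set against each other moves all genes in these comparisons. With library totals in place of TMM, the median log2 fold change of all tested genes was -0.51 in B6 Aire-GFP+ cells, -0.24 in PBS mTEChi and -0.21 in spermidine mTEChi. The share of higher genes among all called genes then became 20.3%, 29.5% and 34%, against 46%, 50.6% and 52.4% with TMM. The median of the 42 minus the median of all genes was -0.61, -0.72 and -0.60 with TMM. With library totals 2 members were called higher and 33 lower in B6 Aire-GFP+ cells, none and 28 in PBS mTEChi, and 1 and 20 in spermidine mTEChi. In either direction 7841 of all 17923 tested genes were then called in B6 Aire-GFP+ cells, against 7410 with TMM. Of the 18418 genes tested in mTEChi, 1968 were called with PBS and 1639 with spermidine, against 1896 and 1678 with TMM.

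Some markers of other cells were called between the genotypes as well, and their part in the fall of the interferon-stimulated genes was not tested. Of all genes, 41.3%, 10.3% and 9.11% were called in either direction in B6 Aire-GFP+ cells, PBS mTEChi and spermidine mTEChi. Of 10 macrophage and dendritic markers, 7 fell and Lyz2 rose in B6 Aire-GFP+ cells, where their summed level was 2180 to 2184 CPM in Aire-KO and 1094 to 1488 CPM in WT and none was at 0 in either group. These sums are mostly Lyz2, and the other 9 summed to 54.9 and 49.3 CPM in Aire-KO, against 195, 205 and 156 CPM in WT. Ptprc, which encodes CD45, fell there, with 2.02 and 0.852 against 5.81, 5.64 and 6.42 CPM for Aire-KO and WT libraries. In mTEChi the same 10 summed to 1359 to 1921 CPM in PBS Aire-KO and 1532 to 1598 CPM in PBS WT, with only Itgam called (lower), and to 1793 to 2046 CPM in spermidine Aire-KO and 1430 to 1743 CPM in spermidine WT, with none called. Without Lyz2 they summed to 477 and 477 CPM in PBS Aire-KO, against 517 and 354 CPM in PBS WT, and to 647 and 575 CPM in spermidine Aire-KO, against 376 and 647 CPM in spermidine WT. The 7 markers of plasmacytoid dendritic cells, a main source of type I interferon, gave 4 lower and 1 higher (Irf8) in B6 Aire-GFP+ cells, 1 higher (Irf8) in PBS mTEChi, and 1 higher (Irf8) and 1 lower (Klk1) in spermidine mTEChi. Their sums, mostly Irf8 and Spib, were 745 to 767 CPM in B6 Aire-KO and 615 to 739 CPM in WT, 1386 to 1741 CPM in PBS Aire-KO and 822 to 1058 CPM in WT, and 1762 to 1791 CPM in spermidine Aire-KO and 1017 to 1036 CPM in WT.

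Counts of called markers of epithelial subsets and further cells are to be read against those of all genes. Of all genes, 19% rose and 22.3% fell in B6 Aire-GFP+ cells, 5.21% and 5.08% in PBS mTEChi, and 4.77% and 4.34% in spermidine mTEChi. Of 12 mTEC markers, 5 rose and 3 fell in B6 Aire-GFP+ cells (summed level 71194 to 74669 CPM in Aire-KO and 37403 to 39266 CPM in WT), and 9 rose and 1 fell (Krt5) in both mTEChi comparisons (61795 to 64514 CPM in PBS Aire-KO and 33530 to 33977 CPM in WT; 61374 to 62598 CPM in spermidine Aire-KO and 35684 to 35894 CPM in WT). Of 5 tuft cell markers, which label the mTECs that resemble chemosensory cells, 2 fell in B6 Aire-GFP+ cells, 4 in PBS mTEChi and 5 in spermidine mTEChi. Tuft sums were 49.0 to 74.2 CPM in B6 Aire-KO and 92.8 to 133 CPM in WT, 206 to 249 CPM in PBS Aire-KO and 410 to 852 CPM in WT, and 323 to 343 CPM in spermidine Aire-KO and 798 to 883 CPM in WT. Thymocyte markers gave 1 call of 9 in B6 Aire-GFP+ cells (Cd4, lower) and none in mTEChi. Over the B6, PBS and spermidine comparisons, cortical epithelial markers gave 2, 1 and 1 higher and 2, 1 and 0 lower, B cell markers 2, 1 and 1 higher and 1, 0 and 0 lower, fibroblast markers 2, 0 and 0 higher and 2, 2 and 1 lower, endothelial markers 0 higher and 1, 1 and 0 lower, and erythroid markers 0 in either direction.

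The interferons themselves were close to the limit of detection. Of 21 interferon genes, 3 passed the filter in each table. Ifnb1, which encodes interferon-beta, had 0 counts in the 4 Aire-KO mTEChi libraries and 27 counts in the 4 WT mTEChi libraries of the PBS and spermidine experiment, which is at least 8.34-fold lower with a floor of 3 counts over the group. It was called over both treatments averaged (adjusted p = 0.0279) but in neither alone, and 1 of the 4 WT libraries, PBS library 2, also had 0 counts. The call was lost with limma-voom (adjusted p = 0.0972) and without any 1 of the other 7 libraries, with the adjusted p at 1 without WT PBS library 1. Of the other WT mTEChi, the topotecan libraries had 0 and 2 counts, and both DMSO libraries had 0. Ifnl2, a type III interferon, fell in B6 Aire-GFP+ cells, with 3.21 and 2.56 CPM in Aire-KO libraries, against 15.2, 8.46 and 4.72 CPM in WT libraries (log2 fold change -1.70 ± 0.54 SE, 3.26-fold lower, adjusted p = 0.0353), although its near-identical paralog Ifnl3 can take its reads. The call of Ifnl2 was lost with limma-voom (adjusted p = 0.0931) and without either Aire-KO library, WT library 1 or WT library 2.

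Of 13 receptor, JAK, STAT and SOCS genes, 3 rose and 4 fell in B6 Aire-GFP+ cells, shares near those of all genes there (19% and 22.3%). In PBS mTEChi 1 rose and in spermidine mTEChi 3 rose, where 5.21% and 4.77% of all genes did. None of the 13 fell in either, where 5.08% and 4.34% of all genes did. The receptor chains Ifnar2 and Ifngr2, and Socs3, an inhibitor of JAK signalling, were among those that fell in B6 Aire-GFP+ cells. Ifngr1, Jak1 and Jak2 rose in the same cells. The calls of Ifngr1, Jak1 and Jak2 were lost with library totals alone, and that of Ifnar2 without any 1 of the 5 libraries. Stat3 rose in both mTEChi comparisons (0.74 ± 0.16 and 0.83 ± 0.16 on the log2 scale, SE), and its PBS call was lost without Aire-KO library 1 or WT library 1.

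Of 17 tested nucleic acid sensors, adaptors and interferon regulatory factors, Ddx58, which encodes the RNA sensor RIG-I, fell in all 3 comparisons (-0.75 ± 0.25, -0.84 ± 0.17 and -0.66 ± 0.17 on the log2 scale, SE, for B6, PBS and spermidine). Mavs, its adaptor, and Tbk1, the kinase downstream, fell in B6 Aire-GFP+ cells. Irf8 rose in all 3 (1.31 ± 0.20, 1.60 ± 0.30 and 1.69 ± 0.30), and Irf5 in both mTEChi comparisons. In counts, 2 of the 17 rose and 3 fell in B6 Aire-GFP+ cells, 3 rose and 1 fell in PBS mTEChi, and 2 rose and 1 fell in spermidine mTEChi. Both counts of B6 Aire-GFP+ cells lie below the shares of all genes, 19% higher and 22.3% lower. The Ddx58 call in B6 Aire-GFP+ cells was lost in 4 of the 5 omissions of 1 library, that in PBS mTEChi without Aire-KO library 2 and that in spermidine mTEChi in all 4, while that of Irf8 was lost in PBS mTEChi without Aire-KO library 1.

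A second list of 48 interferon-stimulated genes outside the 42 had 47 tested. Of these, 13 rose and 20 fell in B6 Aire-GFP+ cells, 1 rose and 14 fell in PBS mTEChi, and 1 rose and 6 fell in spermidine mTEChi, with median log2 fold changes of -0.33, -0.39 and -0.09. Of all genes, 19% rose and 22.3% fell in the first, 5.21% and 5.08% in the second, and 4.77% and 4.34% in the third. Oas3, Ddx60, Ifi27l2a, Ifitm1 and Apol9b fell in all 3, but with limma-voom the spermidine calls of Oas3, Ddx60, Ifitm1 and Apol9b were lost. Cxcl10, a chemokine that draws T cells, rose in all 3. It had 694 and 647 CPM in Aire-KO libraries, against 378, 296 and 334 CPM in WT libraries of B6 Aire-GFP+ cells (log2 fold change 1.00 ± 0.12 SE, 2.00-fold higher, adjusted p = 0.000517), 452 and 522 against 259 and 262 CPM for Aire-KO and WT libraries of PBS mTEChi (log2 fold change 0.90 ± 0.15 SE, 1.87-fold higher, adjusted p = 0.0018) and 443 and 415 against 256 and 230.5 CPM for those of spermidine mTEChi (log2 fold change 0.82 ± 0.15 SE, 1.76-fold higher, adjusted p = 0.00422). The spermidine call was lost without WT library 2 (adjusted p = 0.054).

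Spermidine over PBS gave no call among the 42 in either genotype with edgeR, DESeq2 or limma-voom after the filter on low counts. In WT mTEChi 4 members had an unadjusted p under 0.05, where 3.85% of all genes did, and no gene of the whole table was called (0%). The median log2 fold change of the 42 was -0.04, and the medians of the members' 95% interval bounds were -0.48 and 0.40. Isg15 had 61.6 and 47.8 CPM in spermidine libraries, against 58.6 and 61.6 CPM in PBS libraries of WT mTEChi, a log2 fold change of -0.13 (95% interval -0.57 to 0.30). The smallest p was that of Ifit2, which had 50.6 and 81.5 CPM in spermidine libraries, against 32.8 and 21.8 CPM in PBS libraries, a log2 fold change of 1.26 (95% interval 0.50 to 2.01) with adjusted p = 0.999. Both spermidine libraries of Ifit2 lay above both PBS libraries. With no filter on low counts its call was made (log2 fold change 1.27, adjusted p = 0.00515). It was followed by Iigp1 at -0.48 (95% interval -0.87 to -0.10), Irf1 at -0.32 (95% interval -0.60 to -0.05), Mx2 at -0.58 (95% interval -1.12 to -0.04) and Igtp at -0.47 (95% interval -0.94 to 0.01).

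In Aire-KO mTEChi 33 of the 42 members were positive with spermidine, with a median log2 fold change of 0.24, while the median of all genes was 0. In all, 6 members had an unadjusted p under 0.05, where 4.12% of all genes did, and 1 gene of the whole table, no member, was called (0.00543%). The medians of the members' interval bounds were -0.27 and 0.68. The 5 smallest p were those of Trim30a at 0.43 (95% interval 0.05 to 0.81), Mx2 at 0.62 (95% interval 0.05 to 1.20), Samd9l at 0.89 (95% interval 0.06 to 1.73), Irgm1 at 0.50 (95% interval 0.03 to 0.98) and Ifit2 at 0.86 (95% interval 0.04 to 1.68), each with an adjusted p of 1. Irgm1 had 56.8 and 88.5 CPM in spermidine libraries, against 47.7 and 54.6 CPM in PBS libraries, groups that did not overlap. Isg15 had 31.1 and 23.3 against 16.9 and 21.1 CPM for spermidine and PBS libraries, a log2 fold change of 0.51 (95% interval 0.01 to 1.01).

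Whether the effect of Aire loss differed with spermidine was tested as an interaction, and no member passed with edgeR, DESeq2 or limma-voom. The log2 difference of the effect, spermidine minus PBS, was positive for 30 of 42 members, with a median of 0.24 and medians of the interval bounds of -0.39 and 0.86. An unadjusted p under 0.05 was found for 6 members, where 3.36% of all genes had one. The smallest p were those of Mx2 at 1.20 (95% interval 0.42 to 1.99), Irgm1 at 0.90 (95% interval 0.25 to 1.55), Irf1 at 0.46 (95% interval 0.07 to 0.85), Irf9 at 0.65 (95% interval 0.08 to 1.22) and Ifit1 at 0.45 (95% interval 0.02 to 0.87), all with adjusted p = 1. For Isg15 the difference was 0.64 (95% interval -0.02 to 1.3).

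Topotecan over DMSO also gave no call among the 42 with edgeR, DESeq2 or limma-voom, while 120 of all genes were called (0.652%), Aire among them (log2 fold change -0.88 ± 0.14, SE, adjusted p = 0.0125). Those calls borrow the spread of all mTEChi libraries: with the 4 libraries of the topotecan experiment alone, 1 gene was called and Aire was not (log2 fold change -0.88, adjusted p = 0.288). The number of called genes was 429 with DESeq2, 60 with limma-voom, 1006 with no filter on low counts and 45 without DMSO library 1, where the Aire call was also lost. In the fit of all mTEChi libraries 3 members had an unadjusted p under 0.05, where 13.9% of all genes did. The median log2 fold change was 0.03, with medians of the interval bounds of -0.40 and 0.44. Isg15 had 63.6 and 79.9 CPM in topotecan libraries, against 64.2 and 75.1 CPM in DMSO libraries, a log2 fold change of 0.04 (95% interval -0.38 to 0.46). Irf7 had 297 and 287 against 246 and 279.5 CPM for topotecan and DMSO libraries, and the groups overlapped for Isg15 but not for Irf7. The 5 smallest p were those of Igtp at -0.59 (95% interval -1.07 to -0.11), Stat2 at 0.42 (95% interval 0.07 to 0.77), Irf1 at 0.29 (95% interval 0.02 to 0.57), Herc6 at 0.66 (95% interval -0.02 to 1.35) and Cmpk2 at 0.84 (95% interval -0.05 to 1.73), and the adjusted p of Igtp was 0.257. Outside the 42, Cxcl10 fell with topotecan, with 158 and 113 against 263 and 265 CPM for topotecan and DMSO libraries (log2 fold change -0.96 ± 0.15 SE, 1.95-fold lower, adjusted p = 0.0141), and it was the 1 gene called among the 47 further interferon-stimulated genes. That call was lost with the 4 libraries of the experiment alone (log2 fold change -0.97, adjusted p = 0.277), without DMSO library 1 and without topotecan library 2 (adjusted p = 0.0579 and 0.0603). Tuft marker sums were 787 to 853 CPM with topotecan and 481 to 566 CPM with DMSO, with no marker called.

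**Figure D4:**
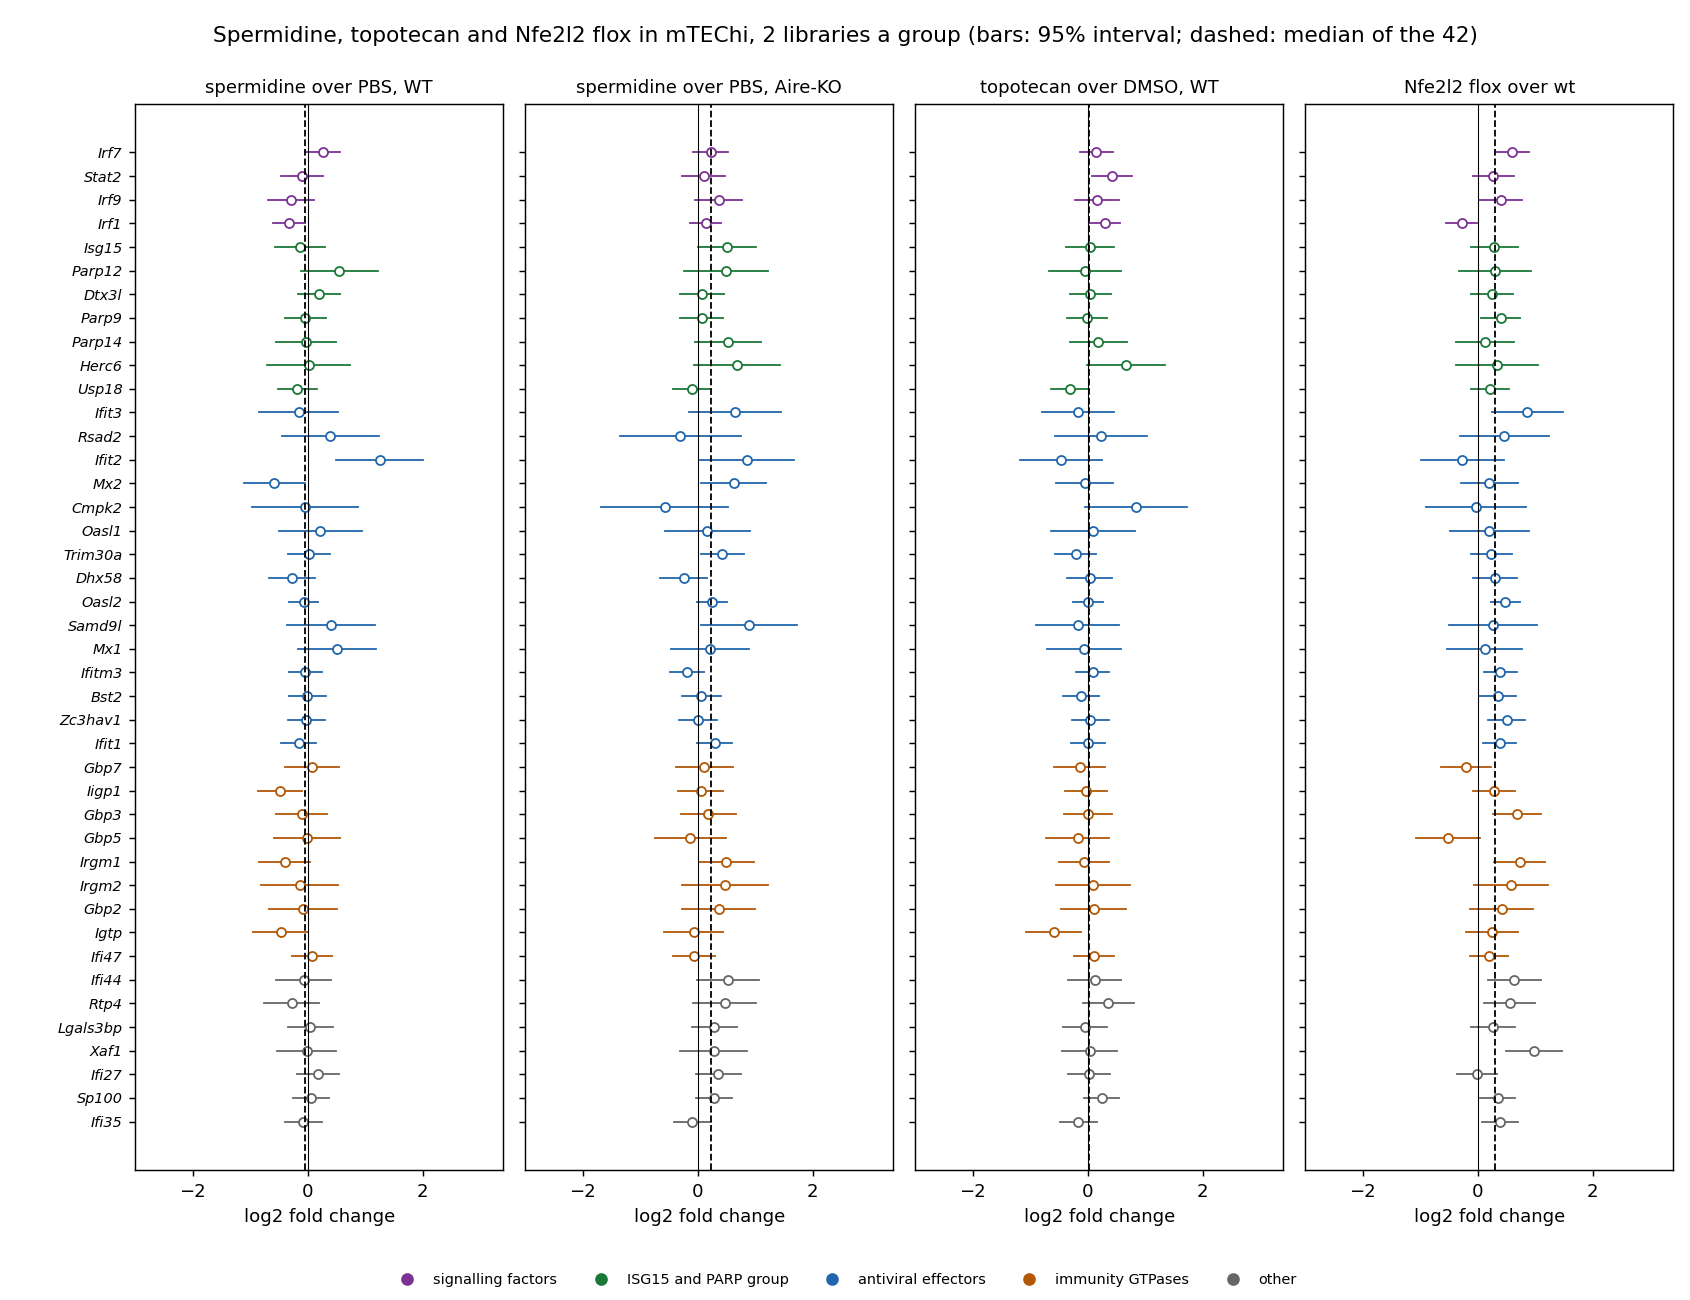
Log2 fold change with 95% interval for the 42 genes with spermidine over PBS in WT and in Aire-KO mTEChi, topotecan over DMSO, and Nfe2l2 flox over wt. The dashed line is the median of the 42, at -0.04, 0.24, 0.03 and 0.30, and no point passed the adjusted threshold.

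In Nfe2l2 flox mTEChi 36 of the 42 members were higher than in wt, but with the filter on low counts no member was called with edgeR or limma-voom, and 2 were with DESeq2. With no filter edgeR called 2, Ifit3 and Xaf1 (Xaf1 with log2 fold change 1.00 and adjusted p = 0.0276). No gene of the whole table was called by edgeR after the filter (0%), and 134 genes were with none. An unadjusted p under 0.05 was found for 17 members, where 5.28% of all genes had one. The median log2 fold change was 0.30 for the 42 and -0.01 for all genes, with medians of the members' interval bounds of -0.11 and 0.71, and it stayed between 0.30 and 0.35 without any 1 of the 4 libraries. The mean of log2(CPM + 1) over the 42 was 6.77 and 6.74 in flox libraries, against 6.47 and 6.43 in wt libraries.

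By gene, Irf7 had 293 and 225 CPM in flox libraries, against 171 and 169.6 CPM in wt libraries of mTEChi, a log2 fold change of 0.61 (95% interval 0.32 to 0.90) with adjusted p = 0.371. Xaf1 had 95.3 and 59.2 CPM in flox libraries, against 43.1 and 34.7 CPM in wt libraries, a log2 fold change of 0.98 (95% interval 0.50 to 1.47) with adjusted p = 0.381. The groups of both genes did not overlap. Oasl2, Irgm1 and Gbp3 had the next smallest p. Oasl2 had 742 and 811 against 506 and 609 CPM for flox and wt libraries, with a log2 fold change of 0.48 (95% interval 0.23 to 0.73). Irgm1 had 74.2 and 99.7 against 48.7 and 56.1 CPM, with a log2 fold change of 0.73 (95% interval 0.29 to 1.18), and Gbp3 had 113 and 88.9 against 70.3 and 54.7 CPM, with one of 0.69 (95% interval 0.27 to 1.10). The 2 members called by DESeq2 were Irf7 (log2 fold change 0.62, adjusted p = 0.0361) and Oasl2 (0.49, adjusted p = 0.0378). Isg15 had 69.0 and 69.3 against 54.6 and 58.4 CPM, a log2 fold change of 0.29 (95% interval -0.12 to 0.70), while Irf1 had 318 and 337 against 377 and 419 CPM for flox and wt libraries, a log2 fold change of -0.28 (95% interval -0.55 to -0.01).

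Interferon transcripts were uneven between the flox libraries. Ifnb1 had 2.84 and 7.78 CPM in flox libraries, against 0.425 and 1.86 CPM in wt libraries, and Ifna4 had 0 and 7.42 against 0.213 and 0.233 CPM for flox and wt libraries. Ifna2 had 1 and 24 counts in flox libraries 1 and 2, whereas Ifna9 had 16 and 0 and Ifna12 had 7 and 0. Ifnl2 had 10 and 69 counts in flox libraries, against 21 and 40 in wt libraries. Ifnl3 had 3 and 43 against 41 and 38 counts for flox and wt libraries. The 3 interferon genes that passed the filter had a median log2 fold change of 0.10, and none was called. The interferon-alpha genes were named after their values were seen. Both flox and both wt libraries held interferon transcripts. The part of these transcripts in the values of the 42 was not tested. Tuft marker sums were 291 to 310 CPM in flox and 424 to 447 CPM in wt, those of plasmacytoid dendritic cells 1087 to 1192 CPM and 1390 to 1408 CPM, and those of macrophages and dendritic cells 1179 to 1286 CPM and 1435 to 1459 CPM, with no marker called. Their part in the values of the 42 was not tested.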

How the data were processed

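RNA was measured in 5 B6 Aire-GFP+ and 16 mTEChi libraries. For mTEChi the authors deposited raw read counts per gene, and for B6 Aire-GFP+ estimated counts and TPM per transcript. The submitters' processing notes name STAR, featureCounts, kallisto, TopHat2 2.1.1, SAMtools 1.3.1 and mm10, with no role or order. The B6 estimated counts, as the authors deposited them, were summed to gene symbols through GENCODE M21 names (116816 of 118489 transcripts matched) and rounded, and the deposited TPM were summed likewise.

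The tests used edgeR 4.0.16 in R 4.3.3 (TMM scaling, filterByExpr, quasi-likelihood), with 1 fit of all 16 mTEChi libraries and 1 of the 5 B6 libraries, and Benjamini-Hochberg adjustment over all tested genes. The alternatives were RLE scaling, library totals alone, no filter, DESeq2 1.42.0, limma-voom (limma 3.58.1), the replicate number as a block, only the libraries of 1 experiment, and leaving out each library. The fits were tested on simulated data. Promoters came from RefSeq (GRCm38.p6). Python 3.11.15, pandas 2.3.3 and matplotlib 3.10.9 made tables and figures.

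The 42 members and all lists were chosen with earlier results of these data known. Per-library values are given for up to 10 called members per direction and comparison, by size of change, with no overlap between groups and a mean of at least 5 CPM, and for the 5 smallest p where fewer than 3 were called. Anchors (Isg15, Irf7, Irf9, Stat2, Irf1, Usp18, Bst2, Gbp2, Ifi27 and Mx1), the targets Aire, Nfe2l2 and Top1, and called list members could also be named. NOD Aire-GFP+ libraries (3 Aire-KO and 3 WT) were not used here, since their transcript identifiers were paired with no symbol, and 3 NOD x B6 F1 samples were not analysed here. The values of 1 gene are not reported here.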

Additional observations from a re-analysis of the deposited data

How the results depend on the processing

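No called member changed sign under any of the alternatives that were run. In PBS mTEChi the count of called members was 23 and became 15 with limma-voom and 7 to 17 when 1 library was left out. In spermidine mTEChi it was 15 and became 8 with limma-voom and 4 to 10 when 1 library was left out. Leaving out 1 library gave 22 to 27 calls in B6 Aire-GFP+ cells (29 with all) and 27 to 32 for the mean of both treatments (34 with all). With no filter on low counts, 1 member was called for spermidine over PBS in WT mTEChi (Ifit2, log2 fold change 1.27) and 2 for Nfe2l2 flox over wt (Ifit3 and Xaf1), where DESeq2 also called 2 (Irf7 and Oasl2). RLE scaling, DESeq2, library totals, no filter and the fit of 1 experiment kept the other counts of called members within 1.5 times, and limma-voom did so in B6 Aire-GFP+ cells (28) and for the mean of both treatments (29). The PBS calls lost with limma-voom included Ifit3, Irgm2, Xaf1 and Gbp2 (adjusted p = 0.0863, 0.0884, 0.0583 and 0.067). The spermidine calls lost with it included Bst2 (0.0546). Among single calls, 18 of 29 in B6 Aire-GFP+ cells, 5 of 23 in PBS mTEChi, 2 of 15 in spermidine mTEChi and 25 of 34 for the mean held under all alternatives. The cause of the lost calls was not tested. Where 1 library was left out, both the number of libraries and the libraries compared differed. In the comparisons of Aire-KO with WT, fewer of all genes were called in those omissions as well. With the replicate number as a block the counts were 25, 24, 15 and 33 for the B6, PBS, spermidine and mean comparisons of Aire-KO with WT, and 0 elsewhere. Same-numbered libraries share only a number: the correlations of their deviations ran from -0.00964 to 0.0575. With 2 libraries in each mTEChi group and totals from 2027205 counts, changes can be missed, and a missed threshold does not show that levels did not differ.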
